A study of Mus musculus with 13 samples.

Results

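Smooth muscle contractile genes, 10 in number, were followed in mouse aortae over 2 circadian cycles: Acta2, Actg2, Myh11, Tagln, Cnn1, Smtn, Tpm1, Tpm2, Cald1 and Des. They were chosen by name, and every probe set that the platform annotation pairs with 1 of them alone was taken. This gave 10 probe sets for 9 of the 10 genes, out of 12422 probe sets and 8251 named genes, and Cald1 (caldesmon) had none. Of the 10 probe sets, 8 passed the intensity filter and were tested, 1 for each of 8 genes.

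The aortae came from c57/Bl6 mice, an inbred laboratory strain. After 2 weeks with lights on for 12 h and off for 12 h, every animal spent 36 h in constant darkness, and aortae were then taken at 4 h steps over 48 h. For each of the 12 time points, CT18 to CT62 in hours of circadian time (CT), 6 aortae were pooled and measured on a one-colour oligonucleotide array. CT18 had 2 arrays, and the labels do not say whether both came from the same pool. They were averaged and counted as 1 pool, so no time point had replicate pools in the fits. A gap between the CT18 arrays can thus not be assigned to the arrays or to the pools. The second day, CT42 to CT62, repeats the 6 circadian times of the first, CT18 to CT38. The sources used here do not give the age or sex of the mice or the stretch of aorta taken.

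Vascular smooth muscle contracts when the myosin motor, whose heavy chain is Myh11, pulls on thin filaments of Acta2 and Actg2 actin. Tropomyosins (Tpm1, Tpm2), calponin (Cnn1), caldesmon, transgelin (Tagln) and smoothelin (Smtn) lie on or beside the actin filament, and desmin (Des) forms the intermediate filaments that link the contractile units. Serum response factor with its cofactor myocardin drives many of these genes through CArG boxes, and the same genes are the usual markers of the contractile state of the aortic media.

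The pools held signal of other tissues as well as smooth muscle. Adipoq, an adipocyte hormone, measured 8123 to 9898 over the 12 pools, and Col1a1, a fibroblast collagen, 2958 to 4269. Tnnt3, the troponin T of fast skeletal muscle, varied from 416 to 4278, Nppa, an atrial hormone, from 112 to 1435, and Rag1, a recombinase of developing lymphocytes, from the measurement floor of 36.7 to 1460. Pecam1, an endothelial adhesion molecule, was dim at 39.3 to 104. In such bulk tissue, fewer cells of a type and less RNA per cell cannot be told apart. Intensities are given in the authors' scaled units, and a level is compared only with levels of the same probe set. As a check of the 24-h test, the clock repressor Nr1d2 was called, with an amplitude of 1.72 ± 0.10 (log2, SE) and a limma adjusted p of 1.19e-05.

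The promoters of Acta2, Tpm1 and Cnn1 are shown because each belongs to a pair of genes whose levels varied together over the pools. A promoter entry was held for 7 of the 10 genes. Each runs from 250 bases before to 50 bases after the start site in RefSeq's annotation of mouse assembly GRCm38.p6, with CArG boxes in capitals, where a box with 1 base other than A or T in its centre was also accepted.
Acta2, chr19:34255324-34255623, minus strand: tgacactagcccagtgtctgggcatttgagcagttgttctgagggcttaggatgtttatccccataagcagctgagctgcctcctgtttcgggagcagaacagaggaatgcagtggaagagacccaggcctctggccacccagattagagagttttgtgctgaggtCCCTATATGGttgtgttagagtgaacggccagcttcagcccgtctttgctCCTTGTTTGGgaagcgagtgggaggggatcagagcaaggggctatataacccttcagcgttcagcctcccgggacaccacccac
Tpm1, chr9:67049164-67049463, minus strand: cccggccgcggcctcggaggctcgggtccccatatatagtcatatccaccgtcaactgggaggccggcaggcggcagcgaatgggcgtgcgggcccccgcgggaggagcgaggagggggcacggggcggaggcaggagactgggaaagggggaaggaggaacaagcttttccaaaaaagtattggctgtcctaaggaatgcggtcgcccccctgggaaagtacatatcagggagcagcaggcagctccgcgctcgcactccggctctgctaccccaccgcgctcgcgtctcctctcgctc
Cnn1, chr9:22099003-22099302, plus strand: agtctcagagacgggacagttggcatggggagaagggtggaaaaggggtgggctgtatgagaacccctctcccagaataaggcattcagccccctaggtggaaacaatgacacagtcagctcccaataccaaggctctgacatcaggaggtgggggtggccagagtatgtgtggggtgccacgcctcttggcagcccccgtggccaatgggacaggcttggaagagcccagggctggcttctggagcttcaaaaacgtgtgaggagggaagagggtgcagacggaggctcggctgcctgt
The Acta2 window held 2 such boxes, CCCTATATGG at -84 to -75 and CCTTGTTTGG at -34 to -25 from the start site, each with 1 base in its centre that is neither A nor T. At least 2 boxes of this kind occur in 0.82% of 32851 promoters of the same length, at least 1 in 9.98%, and an exact CArG box in 1.63%. No box was found in the windows of Tpm1, Cnn1, Smtn, Tpm2, Cald1 or Des, on either strand. The clock's E-box CACGTG was in none of the 7 genes' windows and in 7.15% of all promoters. Actg2, Myh11 and Tagln are named only. A match describes these letters and is not evidence of binding.

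Acta2 (93100_at), the actin that makes up most of the thin filaments in arterial smooth muscle, measured 3777 in its lowest pool, 4434 at the median and 6848 in its highest. The highest pool was CT26, followed by CT46 at 5725 and CT50 at 5516, and the lowest was CT18, where the duplicate arrays read 4011 and 3556. By circadian time, pools 24 h apart averaged highest at CT2, with 6182 ± 942, and lowest at CT18, with 4038 ± 370 (SD, n = 2 pools). CT22 came next to CT2 with 5338 ± 547, and the ranges of these neighbouring times overlapped. The fitted 24-h curve of Acta2 had an amplitude of 0.22 ± 0.08 (log2, SE over 12 pools), a peak at CT1.6 and a peak-to-trough ratio of 1.35. Its p was 0.0455 before adjustment and 0.492 after adjustment in limma, so it did not pass the threshold of 0.05. Fitted on each day alone, the Acta2 curve peaked at CT1.3 on the second day, with an amplitude of 0.16, against CT1.8 and 0.28 on the first.

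Actg2 (93102_f_at), the gamma actin of visceral smooth muscle, measured 1762 at its lowest, 2667 at the median and 2887 at its highest. Its 2 low pools were CT62 (1762) and CT26 (1876), and the other pools lay between 2289 and 2887. CT26 was thus the highest pool of Acta2 and among the lowest of Actg2. The suffix of the Actg2 probe set marks probes that can match other members of a gene family, so signal of other actins in it cannot be separated. The 24-h amplitude of Actg2 was 0.07 ± 0.09 (limma adjusted p = 0.926). It was 0.17 without CT26, and 0.53 ± 0.18 with skeletal muscle, atrial and thymocyte marker scores as covariates (unadjusted p = 0.0448, adjusted p = 0.479).

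Myh11 (97990_at), the smooth muscle myosin heavy chain, measured 1351 at its lowest, 1543 at the median and 1957 at its highest. The high pools CT26 (1957) and CT34 (1939) were both on the first day. The duplicate CT18 arrays read 1692 and 1721, a difference of 0.03 on the log2 scale. The 24-h amplitude of Myh11 was 0.08 ± 0.08 (limma adjusted p = 0.853), and 0.05 without CT26 and 0.13 without CT30.

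Tagln (93541_at), encoding the actin-bundling protein transgelin or SM22 alpha, measured 2387 at its lowest, 3078 at the median and 4026 at its highest. CT26 alone stood above 3256, and CT18 was lowest, with 2486 and 2292 on its 2 arrays. Its 24-h amplitude was 0.08 ± 0.08, and 0.02 without CT26. Cnn1 (99942_s_at), encoding calponin, an inhibitor of the myosin ATPase on actin, measured 698 at its lowest, 849 at the median and 1126 at its highest. Cnn1 was high in CT26 (1126) and CT42 (1111) and lay at 930 or below in every other pool. Its CT18 arrays read 798 and 610, a gap of 0.39 (log2) that is wider than its SD of 0.21 over the 12 pools. Neither gene passed the 24-h test (limma adjusted p = 0.867 for Tagln and 0.720 for Cnn1). Smtn (98559_at), encoding the actin-binding protein smoothelin, was at or below 0 on 10 of 13 arrays and at the floor in 11 of 12 pools, with a highest reading of 87.3 at CT58. Its probe set was below the filter and was not tested, which says nothing of the gene's true level.

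Tpm1 (160532_at), encoding the alpha tropomyosin, varied least of the tested members: 887 at its lowest, 993 at the median and 1268 at its highest. CT26 (1268) and CT46 (1166) were its high pools, and the CT18 arrays differed by 0.005 (log2). Its 24-h curve peaked at CT23.7 with an amplitude of 0.14 ± 0.06 (unadjusted p = 0.0939, limma adjusted p = 0.588).

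Tpm2 (100605_at), encoding the beta tropomyosin of smooth and skeletal muscle, varied most. It measured 132 at its lowest, 387 at the median and 1161 at its highest, an 8.77-fold range. CT34 (1161) and CT18 (1025 and 1088 on its 2 arrays) stood far above the other pools, which reached 472 at most. Low pools were CT46 (132) and CT22 (204), which lie 24 h apart. The SD of Tpm2 was 0.87 on the log2 scale, larger than that of 94.9% of the 7453 probe sets tested, although its CT18 arrays differed by 0.09. The 24-h amplitude was 0.58 ± 0.29 with a peak at CT12.1, and the curves of the 2 days fitted alone both peaked at CT12.1. The spread around the curve was wide, and the adjusted p was 0.667 (limma). Near CT12.1, CT34 and CT38 read 1161 and 324 on the first day, and CT58 and CT62 read 400 and 423 on the second. Curves of the first and second day peaked further apart for Actg2 (CT12.7 and CT2.7) and Myh11 (CT0.3 and CT6.4). The same held for Tagln (CT3.7 and CT23), Cnn1 (CT2.3 and CT20.5) and Tpm1 (CT0.9 and CT21.5). A second Tpm2 probe set, 161320_r_at, whose suffix marks probes picked under relaxed rules, was at the floor in 7 of 12 pools, reached 77.7 at CT30 and was not tested.

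Des (100997_at), encoding the muscle intermediate filament desmin, measured 289 at its lowest, 444 at the median and 543 at its highest. Its low pools were CT58 (289) and CT54 (293), and the same circadian times on the first day, CT34 and CT30, read 507 and 520. The CT18 arrays of Des read 391 and 577, a gap of 0.56 (log2) that is wider than its SD of 0.30 over the pools. Its 24-h amplitude was 0.17 ± 0.11 (limma adjusted p = 0.749).

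**Figure D1:**
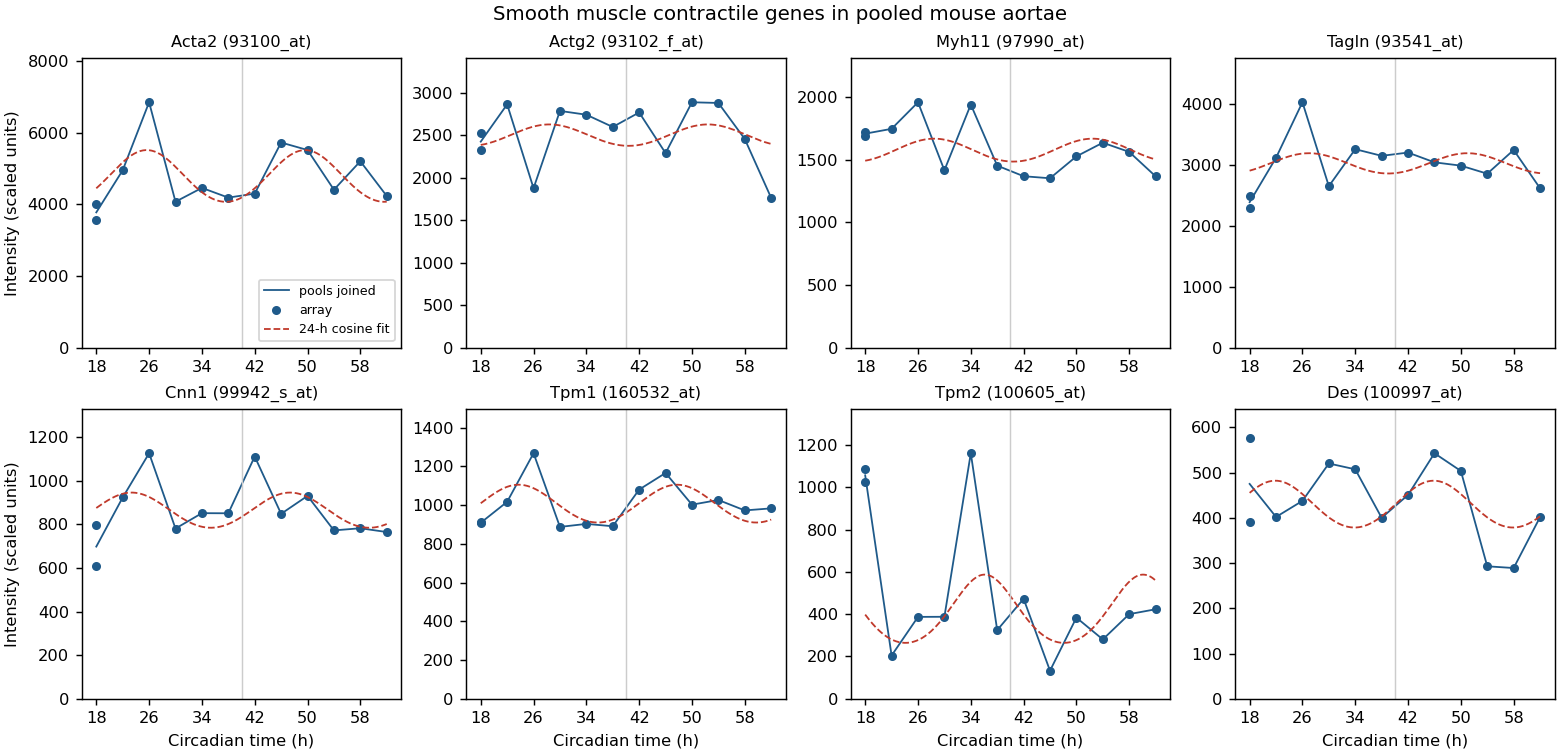
Intensity of each tested member (scaled units, linear axis from 0) against circadian time (h). Points are the 13 arrays, the solid line joins the 12 pools, the dashed curve is the 24-h fit and the grey line separates the first day from the second. Acta2, Myh11, Tagln, Cnn1 and Tpm1 are highest at CT26, and Tpm2 stands apart at CT18 and CT34.

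Over the 8 tested members, 0 passed the 24-h test in limma, against 26 of 7453 probe sets (0.349%). At an unadjusted p under 0.05 there was 1 of 8, Acta2, beside 9.96% of all probe sets. The median amplitude was 0.14 for the members and 0.18 for all probe sets tested. With 1 pool per time point, a p-value here sets the fitted effect against the scatter of pools about the fit, and the number of arrays limits the precision.

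The levels of most members were steadier over the pools than those of a typical probe set. Their SDs were 0.16 (Tpm1), 0.19 (Myh11), 0.19 (Tagln), 0.21 (Cnn1), 0.24 (Actg2), 0.25 (Acta2) and 0.30 (Des) on the log2 scale, against a median of 0.33 for all probe sets tested. Bright probe sets vary less in general: among the 2023 at least as bright as the dimmest tested member, the median SD was 0.20. Tpm1, Myh11 and Tagln lay at or just below that value, and Cnn1, Actg2, Acta2, Des and Tpm2 lay above it. Pools 24 h apart differed by a median of 0.14 for Cnn1, 0.19 for Tagln, 0.20 for Acta2 and Tpm1 and 0.26 for Actg2. This median was 0.32 for Myh11 and Des and 0.55 for Tpm2, against 0.30 for all probe sets tested.

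**Figure D2:**
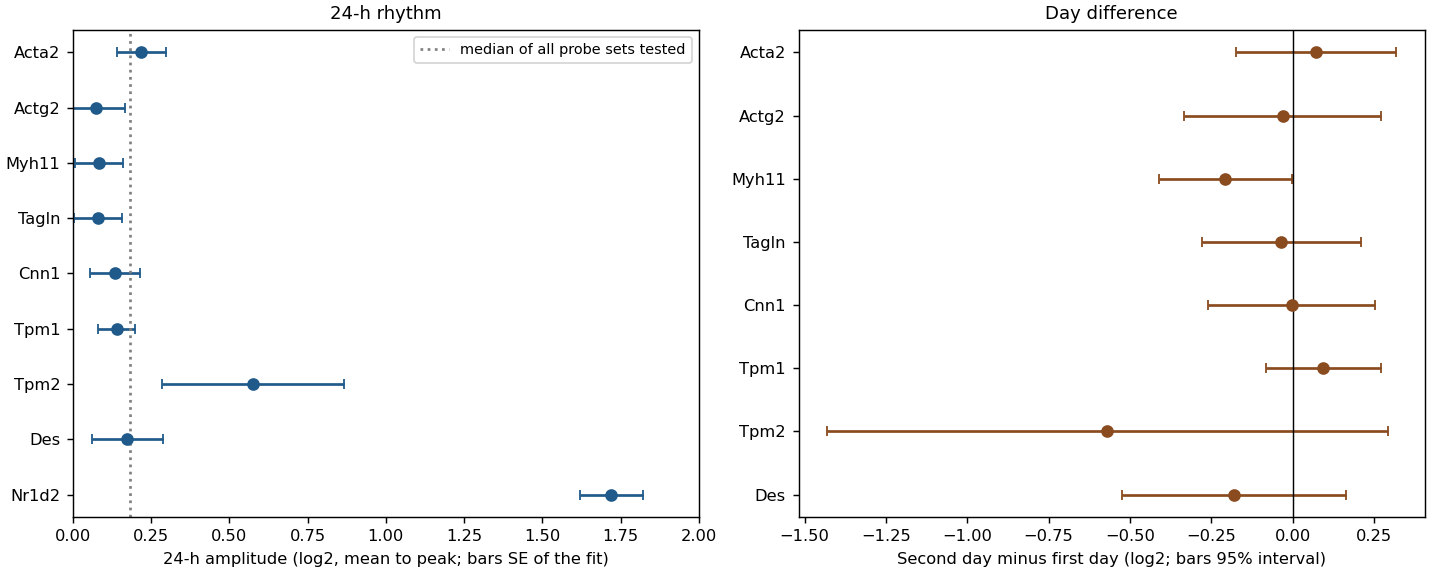
Fitted effects of the 8 tested members on the log2 scale. The left panel gives the 24-h amplitude with the SE of the fit, the median of all probe sets tested (dotted line, 0.18) and Nr1d2 at 1.72 for scale. The right panel gives second day minus first day with 95% intervals, which for Myh11 run from -0.41 to -0.002.

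The comparison of the second sampled cycle with the first asks whether levels drifted between them. Myh11 had the smallest p of the members, with levels of 1351 to 1635 on the second day and 1415 to 1957 on the first. Its difference was -0.21 ± 0.09 (log2, second minus first day), and the second-day pool was lower in 5 of 6 pairs taken 24 h apart. The ranges of the days overlapped, and the p was 0.0486 before adjustment and 0.657 after it (limma). Tpm2 measured 132 to 472 on the second day and 204 to 1161 on the first, a difference of -0.57 ± 0.39, with the second day lower in 5 of 6 pairs (adjusted p = 0.748). The Tpm2 difference was -0.29 without CT18 and -0.84 without CT38. With circadian time as a block in place of the 24-h curve, so that pools 24 h apart are paired, Tpm2 had the smallest p, ahead of Myh11 (-0.57 ± 0.23, n = 12 pools, p = 0.038, limma adjusted p = 0.586, against -0.21 ± 0.09, p = 0.0442 and adjusted p = 0.605 for Myh11). Des ranged from 289 to 543 on the second day and 400 to 520 on the first (-0.18 ± 0.16, adjusted p = 0.801), and with 1 time point left out its difference ran from -0.27 without CT22 to -0.09 without CT54, with -0.10 without CT34 or CT58 and -0.11 without CT30.

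Acta2 and Tpm1 were higher on the second day in 5 of 6 pairs each, by 0.07 ± 0.11 and 0.09 ± 0.08 in the fit (limma adjusted p = 0.886 and 0.80). With 1 time point left out, the Acta2 difference ran from 0.004 without CT30 to 0.16 without CT26, and that of Tpm1 from 0.06 to 0.16 without the same time points. For Actg2, Tagln and Cnn1 the second-day means differed from those of the first by at most 0.04 in size, with intervals that ran no further than -0.33 and 0.27. Cnn1 was nevertheless lower on the second day in 5 of 6 pairs, the exception being 1111 at CT42 against 698 at CT18, and its difference was -0.09 without CT42 and 0.07 without CT26. None of the 8 members passed in limma, beside 0% of all probe sets, and 1 of 8 had an unadjusted p under 0.05, beside 7.54% of all. With the block it was 2 of 8, and the share of all probe sets was not counted for that fit.

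A 12-h component and a difference in the 24-h curve between days were fitted for the same probe sets. Acta2, with high pools at CT26, CT46, CT50 and CT58, had a 12-h amplitude of 0.20 ± 0.06 (n = 12 pools, p = 0.0246, limma adjusted p = 0.842). Des had the clearest difference between the days among the members, 0.60 ± 0.15 (n = 12 pools, p = 0.00892, limma adjusted p = 0.678). Its curve peaked at CT21.3 on the second day, with an amplitude of 0.469, and at CT7.8 on the first, with an amplitude of only 0.135. Neither test called any of the 8 members or any probe set of the table (0%) in limma. At an unadjusted p under 0.05 each had 1 of the 8, beside 5.84% of all probe sets for the 12-h component and 6.98% for the day difference in rhythm.

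CT26 was the highest pool for 5 of the 8 members, Acta2, Myh11, Tagln, Cnn1 and Tpm1, against 8.45% of all probe sets tested and 15.7% of those at least as bright as the dimmest tested member. These 5 genes stood 0.34 to 0.63 (log2) above their own medians there, with Myh11 lowest and Acta2 highest in this range. Against CT18, CT26 was 1.81-fold for Acta2, 1.69-fold for Tagln, 1.61-fold for Cnn1, 1.40-fold for Tpm1 and 1.15-fold for Myh11. Actg2 was 0.77-fold there, and Tpm2 and Des lay within 0.03 of their medians. The pattern was not repeated in full 24 h later, when CT50 was the third highest pool of Acta2 (5516) and of Cnn1 (930) but read 2986 for Tagln, 1526 for Myh11 and 1002 for Tpm1, all near their medians. CT26 stayed highest for the same 5 genes after median-centring of the arrays and for 4 of them, without Myh11, after quantile normalization. The median of the CT26 array was shifted by -0.079 (log2) from the mean of the arrays' medians, so centring raised its values. Only CT58 (-0.09) and CT62 (-0.117) were raised more, so centring was a weak check of this order. Some markers of other cells also stood apart in CT26. The endothelial score (11 of 15 genes) was at its highest there, 0.36 in a range from -0.27, but Pecam1 read 74.0, near its median of 75.8. Col1a1 was at its highest, 4269, whereas the fibroblast and adventitia score (12 of 12 genes) was 0.07 in a range of -0.20 to 0.20. That score includes Thy1, which had a slope of 1.35 on the thymocyte score, so the 2 scores are not separate. The brown fat score (8 of 9 genes) was at its lowest, -0.26 in a range up to 0.51. The skeletal muscle score was -0.70 and the thymocyte score -1.64. The part of these cells in the levels of the members at CT26 was not tested. CT26 is 1 pool on 1 array, and the pool and the array cannot be told apart.

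**Figure D3:**
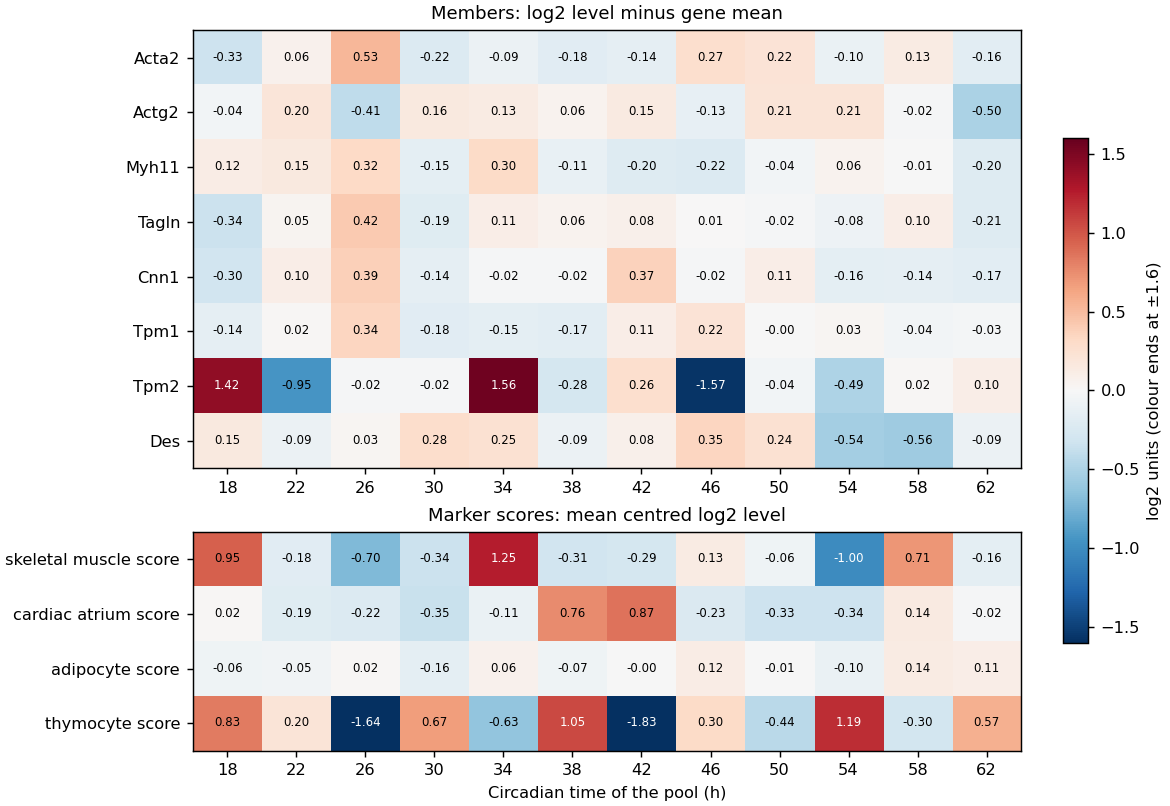
Deviation of each tested member from its own mean (upper panel) and scores of 4 marker lists (lower panel, mean centred log2 level of the list) in each pool, by circadian time in hours. Red is above and blue below the mean, and the colour scale ends at 1.6 in either direction. The column of CT26 holds values of 0.32 to 0.53 for 5 members and a thymocyte score of -1.64.

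Some members varied together over the pools. Among the 28 pairs of tested members, 3 passed a two-sided permutation test of Pearson's r after Benjamini-Hochberg adjustment over the pairs (100000 permutations of 12 pools). Acta2 and Tpm1 had r = 0.80 and a Spearman correlation of 0.69 (permutation p = 0.0021, adjusted 0.0294). Tagln and Cnn1 had r = 0.79 and a Spearman correlation of 0.76 (permutation p = 0.00176, adjusted 0.0294). Acta2 and Tagln had r = 0.76 and a Spearman correlation of 0.59 (permutation p = 0.0041, adjusted 0.0383). Without the 2 pools farthest from the median of the first gene, r was 0.44, 0.52 and 0.60 for these pairs, and without CT26 it was 0.64, 0.67 and 0.56, so part of each relation rests on those pools. By Spearman correlation none of the 28 pairs passed (lowest adjusted permutation p = 0.176).

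Other pairs were loose. The actins Acta2 and Actg2 had r = -0.31 (Spearman -0.04, adjusted permutation p = 0.779), and 0.09 without CT26. Tpm1 and Tpm2 had r = -0.49 (Spearman -0.40, adjusted permutation p = 0.419). Over all 28 pairs the median r was 0.02, with 17 pairs above 0. For scale, the r of Acta2 with the other 7452 probe sets tested had a median of -0.03 and a 95th percentile of 0.55.

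**Figure D4:**
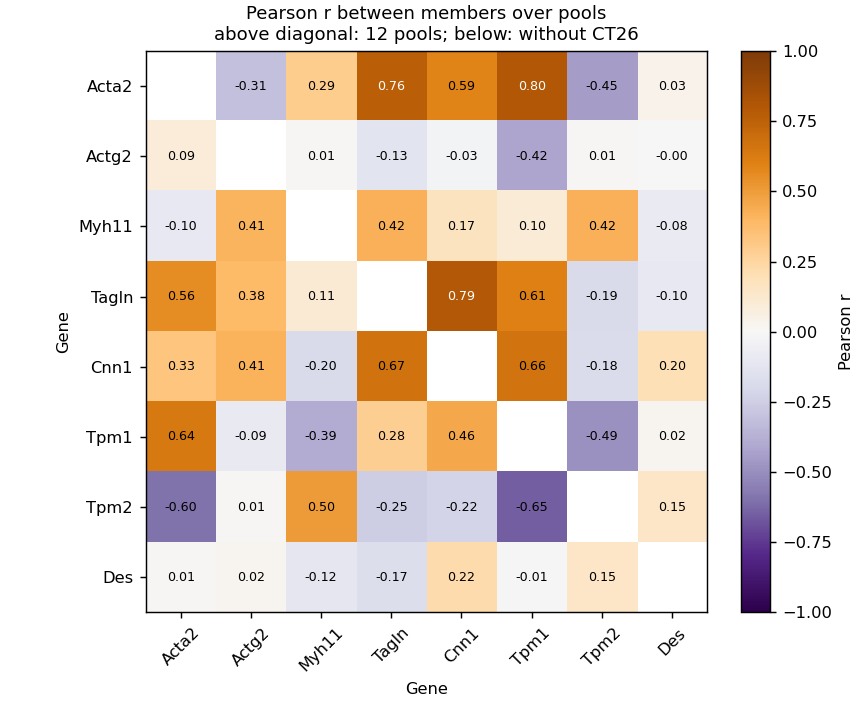
Pearson's r between the levels of the tested members, above the diagonal over 12 pools and below it without CT26. Acta2, Tagln, Cnn1 and Tpm1 form the block of high values above the diagonal (0.59 to 0.80), and Tpm2 is negative against Acta2 (-0.45) and Tpm1 (-0.49).

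Of 5647 genes that are not members, the 5 whose 12-pool profile was most like the mean of Acta2, Myh11, Cnn1 and Tagln were Rabac1, Myl9, P4hb, Bgn and Gpx3, with r of 0.88 for Rabac1 and 0.87 for the others. Myl9, the regulatory light chain of smooth muscle myosin, measured 1703 at CT18, its lowest pool, and 2711 at CT26, its highest. Rabac1, a prenylated Rab acceptor, measured 2497 at CT30 and 3384 at CT26, and Bgn, the matrix proteoglycan biglycan, 2389 at CT18 and 3612 at CT26. All 5 genes were highest at CT26, which the choice favours, since the mean profile was also highest there (0.41 in centred log2). Without that pool they ranked 28th (Rabac1), 43rd (Gpx3), 52nd (Myl9), 54th (P4hb) and 70th (Bgn) by likeness, with r of 0.72 to 0.80.

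Tpm2, made in skeletal as well as smooth muscle, was set against a skeletal muscle score, the mean centred log2 level of the 21 of 25 listed marker genes that were tested. The score was 1.25 at CT34, 0.95 at CT18 and 0.71 at CT58, and at most 0.13 in the other pools. Tpm2 was high in the first 2 of these pools, at 1161 and 1056, but read 400 at CT58, near its median. Tnnt3 followed the same order, with 4278 at CT34, 3133 at CT18 and 2680 at CT58.

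The slope of Tpm2 on the skeletal score was 0.78 ± 0.29 (log2 per unit of score, n = 12 pools, p = 0.0161, limma adjusted p = 1), larger in size than that of all but 0.5% of probe sets. A slope in log2 units also grows with spread, and the SD of Tpm2 was larger than that of 94.9% of probe sets. The slope of Tpm2 ranged from 0.53 without CT34 to 0.88 without CT58. Pearson's r between Tpm2 and the score was 0.60 and the Spearman correlation 0.45 (permutation p = 0.0381 and 0.146, adjusted 0.407 and 0.657 over the 32 relations between members and scores). Without the 2 pools farthest from the median score r was -0.08, so the relation rests on those pools. None of the 8 members was called, against 0.162% of all probe sets, and 1 of 8 had an unadjusted p under 0.05, beside 3.08%. The 24-h amplitude of Tpm2 was 0.37 ± 0.27 with the score as a covariate and 0.58 ± 0.49 with the atrial and thymocyte scores added, against 0.58 ± 0.29 with none. For the 21 marker genes of the score taken singly, Pearson's r with Tpm2 ran from 0.13 to 0.76, with 1 exception at -0.36. The part of skeletal muscle RNA in the level of Tpm2 was not tested beyond these fits and correlations. Des, likewise a gene of striated muscle, had a slope of 0.11 ± 0.13 that was -0.009 without CT54, and Tpm1 had -0.11 ± 0.07.

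**Figure D5:**
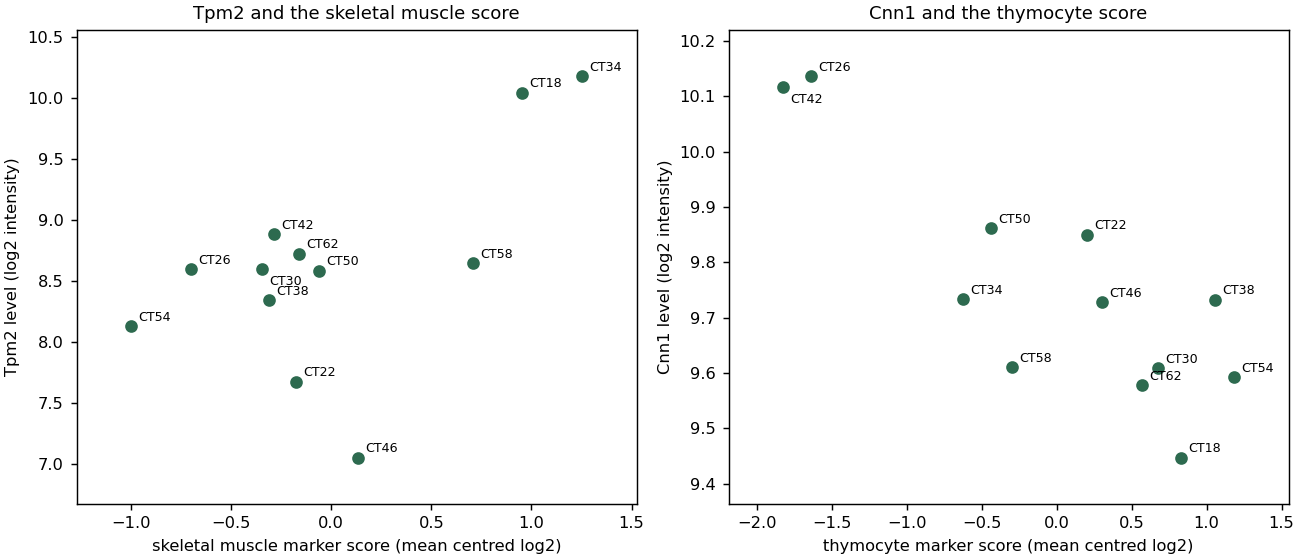
Level (log2 intensity) of Tpm2 against the skeletal muscle score and of Cnn1 against the thymocyte score, 1 point per pool, labelled by circadian time. Tpm2 is high at CT34 and CT18, which have the highest skeletal scores, but not at CT58. Cnn1 is highest in CT26 and CT42, the pools with the lowest thymocyte scores.

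The thymus lies beside the thoracic aorta, and a thymocyte score was made in the same way from 9 of 13 listed genes. It was lowest at CT42 (-1.83) and CT26 (-1.64), where Rag1 was at the floor, and highest at CT54 (1.19), where Rag1 read 1460. Cnn1 was highest in those 2 low pools, with 1111 at CT42 and 1126 at CT26, and read 772 at CT54. Its slope was -0.18 ± 0.04 (log2 per unit of score, n = 12 pools, p = 0.000769, limma adjusted p = 0.0829). Pearson's r between Cnn1 and the score was -0.84, the 1 relation of the 32 between members and scores that passed a permutation test after adjustment over the 32 (p = 0.00106, adjusted 0.0339). The Spearman correlation of -0.78 did not pass (permutation p = 0.00413, adjusted 0.132), and r was -0.50 without the 2 pools farthest from the median score. The slopes of Tagln and Acta2 were -0.14 ± 0.04 (n = 12 pools, p = 0.00708, adjusted p = 0.286) and -0.13 ± 0.06 (p = 0.0499, adjusted p = 0.586). Without CT26 the slopes were -0.16 for Cnn1, -0.09 for Tagln and -0.06 for Acta2, and without CT42 they were -0.17, -0.18 and -0.24.

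None of the 8 members was called on the thymocyte score in limma, against 0.739% of all probe sets. At an unadjusted p under 0.05 there were 3 of 8, beside 8.49% of all probe sets, and the 3 were all lower where the score was higher, beside 3.28% in that direction. The slope was negative for 7 of the 8 members, with a median of -0.11, against 0.003 over all probe sets, but those of Myh11 and Des reached 0.005 and 0.003 without CT26 and without CT54. The 12 measured genes of the fibroblast and adventitia list, another tissue of the vessel wall, had a median slope of -0.10. At an unadjusted p under 0.05, 6 of them were lower and 1 was higher where the score was higher. The higher gene was Thy1, the only called gene of the list, with a slope of 1.349 ± 0.135 (n = 12 pools, p = 1.24e-07, limma adjusted p = 8.37e-05). Whether thymic RNA in a pool lowers the share of the genes with negative slopes was not tested.

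An atrial score (10 of 11 genes, highest at CT42 with 0.87 and CT38 with 0.76) called none of the 8 members, nor any probe set (0%), in limma, and 0 of 8 had an unadjusted p under 0.05, beside 4.22%. An adipocyte score (11 of 14 genes) varied little, from -0.16 to 0.14, and also called no member and no probe set (0%). On it Actg2 alone of the 8 had an unadjusted p under 0.05, with a slope of -1.39 ± 0.63 (n = 12 pools, p = 0.0461, limma adjusted p = 0.719), beside 6.88% of all probe sets. This slope was -0.88 without CT62, -0.54 after median-centring and -2.24 after quantile normalization.

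Genes that work with the members were taken from 5 lists. In the 24-h test 0 of 13 genes of myosin light chain and its phosphorylation passed, 0 of 24 of dense bodies, adhesion sites and cytoskeletal links, 0 of 9 non-muscle paralogs, 0 of 21 of transcriptional control and 0 of 12 of calcium handling and cyclic GMP. At an unadjusted p under 0.05 there were 1, 1, 3, 2 and 1 genes in these lists, beside 9.96% of all probe sets, and the lists' median amplitudes were 0.15, 0.13, 0.15, 0.23 and 0.22, beside 0.18 for all.

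In 4 of these lists the gene with the smallest p had the following 24-h curve. Cnn2, the non-muscle calponin, had an amplitude of 0.36 ± 0.09 with a peak at CT0.1 (limma adjusted p = 0.290). Yap1, a transcriptional cofactor that responds to cell tension, had 0.29 ± 0.08 with a peak at CT20.1 (adjusted p = 0.322). Atp2a2, the calcium pump of the sarcoplasmic reticulum, had 0.79 ± 0.24 with a peak at CT13.5 (adjusted p = 0.395), and Pdlim4, a PDZ and LIM domain protein of actin bundles, 0.40 ± 0.13 with a peak at CT24 (adjusted p = 0.444).

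On the skeletal score none of these lists had a called gene either. Tpm3, a non-muscle and slow skeletal tropomyosin, had a slope of 0.50 ± 0.11 (n = 12 pools, p = 0.000578, limma adjusted p = 0.205), and Fhl1, a LIM protein abundant in skeletal muscle, 0.19 ± 0.06 (p = 0.00948, adjusted p = 1). Prkca, Mef2a and Cacnb2 had the smallest p of their lists, with slopes of -0.30, -0.15 and 0.28 (adjusted p = 1 each). CT26 was the highest pool for 8 of the 24 genes of dense bodies and adhesion sites, 2 of the 9 paralogs, 2 of the 12 calcium genes, 1 of the 13 myosin light chain genes and 0 of the 21 of transcriptional control, beside the 8.45% of all probe sets and 15.7% of the bright ones.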

How the data were processed

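The authors deposited linear intensities, 1 for each probe set of each array. Their software and scaling, like the build of the array design, were not given in the sources used here. The trimmed mean was 200.2 on all 13 arrays (2% trimmed at each end), so the deposited intensities were used without further scaling. On an array 21.3% to 24.2% of values were at or below 0, and the median lay between 70.3 and 87.6. Of 12488 probe sets, 66 controls were left out. Of the other 12422, the annotation gave 1 gene for 10833, several for 396 and did not list 1193, and 10817 symbols were found in a RefSeq table of GRCm38.p6, with 0 changed.

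Values below 36.7, the 20th percentile of positive values, were set to that floor before log2, and the CT18 arrays were averaged on that scale. Probe sets with a mean at or above the 40th percentile (an intensity of 48.5, log2 of 5.60) were tested, 7453 in all. Models were fitted over the whole table with limma 3.58.1 in R 4.3.3 (eBayes with trend), with Benjamini-Hochberg adjustment and a threshold of 0.05. The 24-h model had cosine and sine terms. The second day, a 12-h component and a day difference in rhythm were added to it with the lower terms as covariates. Slopes on marker scores were fitted alone, and probe sets of a score's genes were left out of its fit. The amplitude is mean to peak, and intervals cover 95%. The fits were tested on simulated data.

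The members and gene lists were chosen with earlier results of these data known. Named were all members, the gene of smallest p in each related list for the 24-h and skeletal score tests (1 of these 24-h results is not reported here), Nr1d2, 6 defining markers and the 5 genes most like the mean profile of Acta2, Myh11, Cnn1 and Tagln. Thy1 was also named, as the called gene of the fibroblast and adventitia list on the thymocyte score. Alternatives changed the floor, filter, scaling, variance model, covariates and the pools used.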

Additional observations from a re-analysis of the deposited data

How the results depend on the processing

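No member passed the threshold in any of the 209 alternative fits of the 8 tests, which covered other floors, a log2 of value plus 100, filters, median-centring, quantile normalization, an ordinary and a rank-based test, marker scores or day as covariates, and each CT18 array or time point left out. The count of members called was 0 in every fit that left out an array or time point, lowest and highest alike. The lowest adjusted p was 0.204 for the 24-h test (Acta2, without CT30), 0.441 for the day, 0.620 for the 12-h component, 0.513 for the day difference in rhythm, 0.275 for the skeletal score (Tpm2, without CT46), 0.993 for the atrial score, 0.194 for the adipocyte score and 0.0602 for the thymocyte score (Cnn1, floor at the 10th percentile). For the whole table, the 24-h calls ran from 0 on rank-transformed profiles to 43 with the CT18 arrays kept separate, against 26. The order of CT26 under other scalings was examined after seeing the data.

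Without 1 array or time point, the 24-h amplitude of Tagln was 0.02 without CT26, that of Des 0.09 without CT58 and 0.27 without CT34, that of Actg2 0.17 without CT26, and that of Tpm2 reached 0.73 without CT38. The widest move was that of Actg2, to 0.53 with 3 marker scores as covariates. Of the 40 signed effects of members, 21 changed sign in some alternative, 49 times in all, and none of these passed the threshold. The slopes of Des on the skeletal score and of Myh11 and Des on the thymocyte score are among them. No paired analysis by replicate number was possible because that number is 1 at every time point, beside the second array of CT18. Pools 24 h apart were paired instead with circadian time as a block, where 0 members and 0 of 7453 probe sets were called. In that fit 2 members had an unadjusted p under 0.05, and the share of all probe sets at that p was not counted. Values at the floor are bounds, so Smtn and the second Tpm2 probe set are described only.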
